A study of Mus musculus with 48 samples.

Results

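Immediate early genes are transcribed within minutes of a stimulus such as a growth factor, a cytokine, mechanical stress or nerve activity, from promoters whose transcription factors are already in place, and their transcripts decay quickly. In the kidney they are known as markers of acute stress, ischaemia and toxic injury, and also of handling just before the tissue is taken. They include transcription factors of the AP-1, EGR and NR4A families, which act on later genes, and small signalling proteins.

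The genes described here are Fos, Jun, Egr1, Nr4a1, Csrnp1, Rasd1, Plk2, Plk3 and Slc25a25, 9 of the 7859 genes that could be named in a table of mouse kidney arrays. They were chosen by measured values in earlier results of these data, which set mice given intravenous (iv) saline, intraperitoneal (ip) saline and 400 mg/kg of vancomycin by either route against each other. Their levels in iv saline, ip saline, iv 400 and ip 400 mg/kg, and every contrast with one of those 4 groups, are therefore given as description, with no test. A high level in iv saline was found for 8 of the 9 genes, and Plk2 departs from this, since its highest mean lay at ip 400 mg/kg.

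The series followed kidney toxicity of vancomycin, a glycopeptide antibiotic. Female BALB/c mice received 7 daily doses and were killed on day 8. The 8 groups of 6 mice were iv saline, iv vancomycin at 50, 200 and 400 mg/kg, ip saline, and ip vancomycin at 50, 200 and 400 mg/kg. All groups shared the strain and the daily injection, and the labels name no genetic change. Each mouse gave total RNA from a small piece of kidney to 1 Affymetrix array, so the replicate is the mouse (n = 6 throughout). The labels used here name no age of the mice, no hour of dosing or killing and no position of the piece in the kidney. Values are log2 of GCRMA intensities, a scale on which a step of 1 is a doubling, and the median of the whole table was 3.47. No detection calls were used here, so a level near or below that median may not exceed background, and fold changes against such levels are not exact. In a piece of tissue, fewer cells of a type and less RNA per cell cannot be told apart.

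The arrays of the routes differed as a whole: the 90th percentile of an array lay between 8.28 and 8.75 in the 24 iv arrays and between 9.07 and 9.23 in the 24 ip arrays. The median gene was 0.47 higher (log2) in ip than in iv at 50 mg/kg and 0.38 higher at 200 mg/kg, and with quantile normalization these medians were -0.02 and -0.04. Whether the routes were normalized together is not given in the sources used here, so route and array scale cannot be told apart, and ip against iv differences are read against these medians. Within the iv groups, 2 arrays stood apart: mouse 1 of iv saline had a 90th percentile of 8.29, against 8.68 to 8.75 in the other 5 arrays of its group, and mouse 9 of iv 50 mg/kg had 8.28, against 8.62 to 8.72. Each was the lowest of its group in the mean deviation of 3 gene lists, the other immediate early genes (-0.42 and -0.35), tubular injury (-0.24 and -0.28) and clock genes (-0.39 for both), and it was the lowest of its group for 5 and 6 of the 9 members. Results that rest on them are given with and without them, an alternative added after the data were seen. Proximal tubule, loop and distal tubule, collecting duct and podocyte markers were present, such as Lrp2 at 12.77, Umod at 13.27 and Nphs1 at 5.29 in iv saline. Not every podocyte marker was: Wt1 averaged 4.25 there, and Podxl 2.66, below the table median. In iv 50 mg/kg against iv saline, 0 of the 58 tested markers of 14 cell types were called by limma, with 1 at an unadjusted p under 0.05. In that contrast 0.505% of all genes were called lower and 0.0348% higher, so a count of 0 is near the background. The neutrophil, T and NK cell, B and plasma cell, red blood cell and platelet lists had 1 tested gene each.

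Promoters are shown for 5 of the genes to let their known control sequences be seen beside the levels. RefSeq starts on GRCm38.p6 (the C57BL/6J reference, not BALB/c) were available for 7 of the 9 genes, at 12 start sites, 4 of them for Csrnp1 and 3 for Slc25a25, and Egr1 and Rasd1 were not matched. The windows are the 250 bases before the start, 5′ to 3′ on the gene's strand, and lie at chr12:85473640-85473889 (plus strand) for Fos, chr4:95052223-95052472 (minus) for Jun, chr15:101266596-101266845 (plus) for Nr4a1, chr13:110394794-110395043 (plus) for Plk2 and chr2:32424067-32424316 (minus, the third start listed) for Slc25a25. Capitals mark the core of the cAMP response element, TGACG on either strand.
Fos: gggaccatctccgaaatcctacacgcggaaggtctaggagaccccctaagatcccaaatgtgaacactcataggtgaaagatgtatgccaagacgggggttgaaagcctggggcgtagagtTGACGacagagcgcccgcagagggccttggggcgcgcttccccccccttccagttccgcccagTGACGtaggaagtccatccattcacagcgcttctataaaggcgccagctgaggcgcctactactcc
Jun: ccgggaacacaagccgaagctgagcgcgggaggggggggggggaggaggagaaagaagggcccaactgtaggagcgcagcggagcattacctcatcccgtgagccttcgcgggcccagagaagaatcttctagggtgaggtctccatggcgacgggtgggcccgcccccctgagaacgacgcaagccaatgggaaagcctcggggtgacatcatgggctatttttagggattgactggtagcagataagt
Nr4a1: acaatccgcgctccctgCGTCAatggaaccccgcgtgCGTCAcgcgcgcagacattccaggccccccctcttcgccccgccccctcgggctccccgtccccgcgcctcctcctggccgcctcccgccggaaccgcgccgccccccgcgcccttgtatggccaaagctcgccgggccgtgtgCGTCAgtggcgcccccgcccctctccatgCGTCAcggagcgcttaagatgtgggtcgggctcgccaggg
Plk2: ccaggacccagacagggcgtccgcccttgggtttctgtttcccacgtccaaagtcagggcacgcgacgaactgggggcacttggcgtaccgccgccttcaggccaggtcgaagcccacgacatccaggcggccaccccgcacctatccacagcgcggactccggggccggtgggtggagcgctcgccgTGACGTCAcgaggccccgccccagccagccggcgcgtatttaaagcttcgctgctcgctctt
Slc25a25: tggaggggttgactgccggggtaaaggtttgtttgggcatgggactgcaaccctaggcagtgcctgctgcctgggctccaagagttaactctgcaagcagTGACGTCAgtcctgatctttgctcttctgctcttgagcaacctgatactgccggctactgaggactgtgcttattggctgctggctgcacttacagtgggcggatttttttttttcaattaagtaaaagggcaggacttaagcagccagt
In the windows shown, the core occurred 4 times for Nr4a1 and 2 times each for Fos, Plk2 and Slc25a25, and was not found for Jun. In Plk2 and Slc25a25 its 2 matches overlap in the whole element, TGACGTCA. The Slc25a25 window was shown because it holds the whole element, and start sites 1 and 2 of Slc25a25 had 0 matches of the core. The core was found in 9 of the 12 windows (6 of the 7 genes), against 17.8% of all 32851 windows, and the whole element in 2 of the 12 (2 genes), against 1.55%. A gene with several windows has more chances of a match. All 4 windows of Csrnp1 are among the 9, and the share of all genes with a match was not taken. The TATA box letters TATAAA were found in 1 of the 12 windows, that of Fos (12.4% of all windows), the AP-1 letters TGANTCA in 1, of Csrnp1 (6.75%), and the EGR letters GCGNGGGCG in 1, of Nr4a1 (4.7%). The CArG box, which the serum response factor binds (1.47%), and the Nur77 element AAAGGTCA (1.34%) were not found, which says only that these letters are not in these windows. All searches covered both strands. These matches are a description of sequence, and the arrays hold no measurement of binding.

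Fos, the partner of Jun in the AP-1 transcription factor, was high in iv saline and low in the ip groups below 400 mg/kg. Its lowest, median and highest log2 values were 9.16, 10.36 and 10.59 in iv saline, 2.57, 6.11 and 7.86 in iv 50 mg/kg, 3.66, 7.47 and 8.44 in iv 200 mg/kg, and 6.21, 7.62 and 11.49 in iv 400 mg/kg. The ip values ran lower, at 2.76, 3.74 and 4.72 in saline, 2.11, 2.92 and 4.17 at 50 mg/kg, 2.09, 3.03 and 3.28 at 200 mg/kg, and 5.73, 7.34 and 8.00 at 400 mg/kg. All 6 iv saline arrays lay above every array of the other groups but 1, the iv 400 array of mouse 45. In ip 200 mg/kg, 0 of 6 arrays exceeded the table median, and in ip 50 mg/kg 1 of 6 did. The mean was 10.14 ± 0.56 (SD) in iv saline and 3.72 ± 0.73 in ip saline, a difference of -6.41 ± 0.72 (SE).

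Jun, its partner in AP-1, was well above the table median in all groups. The lowest, median and highest values were 9.99, 10.55 and 10.90 in iv saline, 6.64, 7.81 and 9.14 in iv 50 mg/kg, 7.81, 9.08 and 9.66 in iv 200 mg/kg, and 9.59, 10.22 and 11.23 in iv 400 mg/kg. In the ip mice they were 7.69, 8.53 and 8.91 with saline, 7.56, 7.84 and 8.00 at 50 mg/kg, 7.67, 7.77 and 8.25 at 200 mg/kg, and 9.68, 10.54 and 10.92 at 400 mg/kg. Here 3 groups stood level at the top: the means of iv saline, ip 400 and iv 400 mg/kg were 10.51, 10.38 and 10.29, closer than their SDs. The next group, iv 200 mg/kg, was 1.35 below iv 400, more than either SD.

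Egr1, a zinc finger transcription factor, was high in iv saline. The lowest, median and highest values there were 10.14, 10.91 and 11.13, against 4.25, 7.26 and 8.82 in iv 50 mg/kg, 6.05, 8.49 and 9.53 in iv 200 mg/kg, and 8.03, 9.01 and 10.98 in iv 400 mg/kg. The ip values were 5.69, 6.33 and 8.82 with saline, 5.21, 5.73 and 6.80 at 50 mg/kg, 5.02, 5.79 and 6.82 at 200 mg/kg, and 8.88, 9.72 and 10.55 at 400 mg/kg. Of the 42 other arrays 3 exceeded the lowest iv saline array. As for Fos and Jun, the iv means were lowest at 50 mg/kg, running 10.82, 6.95, 8.28 and 9.23 from saline to 400 mg/kg.

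Nr4a1, the orphan nuclear receptor Nur77, was far higher in iv saline than in any other group. The lowest, median and highest values were 9.71, 10.15 and 10.53 in iv saline, 5.13, 5.61 and 7.15 in iv 50 mg/kg, 4.95, 6.02 and 7.61 in iv 200 mg/kg, and 5.71, 6.30 and 9.41 in iv 400 mg/kg. In the ip groups the means were 5.95, 5.89 and 5.68 with saline, 50 and 200 mg/kg, with SDs from 0.16 to 0.21, and 6.76 ± 0.63 at 400 mg/kg. Its mean at iv 400 mg/kg was 3.21 ± 0.41 (SE) below iv saline. Csrnp1 encodes a nuclear protein that can activate transcription, and its lowest, median and highest values in iv saline were 7.23, 7.74 and 8.02. Its means were 5.13, 5.09 and 5.85 in iv 50, 200 and 400 mg/kg, and 4.79, 4.65, 4.67 and 6.04 in the ip groups from saline to 400 mg/kg. For both genes no array of the other 42 reached the lowest iv saline array, which held for 3 of 5748 genes tested (0.0522%). The third gene was Ciart, a repressor linked to the circadian clock, and this separation belongs to the pattern the members were selected on.

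Rasd1 encodes a small GTPase of the Ras family that glucocorticoids induce. Its lowest, median and highest values were 7.16, 7.64 and 8.07 in iv saline, 3.71, 5.30 and 6.03 in iv 50 mg/kg, 3.86, 5.57 and 5.90 in iv 200 mg/kg, and 5.89, 6.38 and 7.78 in iv 400 mg/kg. The ip saline, 50 and 200 mg/kg groups were nearly flat, at 4.08, 4.05 and 4.11 with SDs from 0.13 to 0.15, and the mean at ip 400 mg/kg was 6.55 ± 0.53. The means of ip 400 and iv 400 mg/kg differed by 0.02.

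Plk2 and Plk3 encode serine/threonine polo-like kinases, and they did not share a pattern. Plk2 had lowest, median and highest values of 4.72, 5.37 and 5.65 in iv saline, 3.80, 4.53 and 5.22 in iv 50 mg/kg, 3.91, 4.47 and 5.52 in iv 200 mg/kg, 3.40, 5.42 and 5.80 in iv 400 mg/kg, and 5.80, 6.42 and 7.79 in ip 400 mg/kg. The other ip means were 5.06, 4.93 and 5.08, and 33 of the 42 other arrays exceeded the lowest iv saline array. In the order of the Plk2 means, only the gap of 1.26 between ip 400 mg/kg and iv saline exceeded the larger SD of the neighbouring groups. Plk3 had lowest, median and highest values of 6.37, 7.53 and 8.22 in iv saline, 3.88, 5.00 and 5.97 in iv 50 mg/kg, 4.07, 5.39 and 6.06 in iv 200 mg/kg, and 3.53, 4.80 and 7.50 in iv 400 mg/kg. Its ip means were 3.73, 3.43, 3.01 and 3.60 from saline to 400 mg/kg, around the table median, so Plk3 differed from Fos, Jun, Egr1 and Rasd1 in being low at ip 400 mg/kg. That difference in pattern is a description and was not tested.

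Slc25a25 encodes a calcium-regulated mitochondrial carrier of ATP-Mg and phosphate. Its lowest, median and highest values were 7.55, 8.16 and 9.33 in iv saline, 4.42, 5.55 and 7.77 in iv 50 mg/kg, 4.39, 4.83 and 6.45 in iv 200 mg/kg, and 4.80, 5.16 and 6.69 in iv 400 mg/kg. With ip saline they were 5.00, 7.02 and 7.48, so ip saline held the second highest mean, 6.51. The ip means at 50, 200 and 400 mg/kg were 5.80, 5.47 and 4.46, and ip 400 mg/kg had the lowest mean of the 8 groups.

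**Figure D1:**
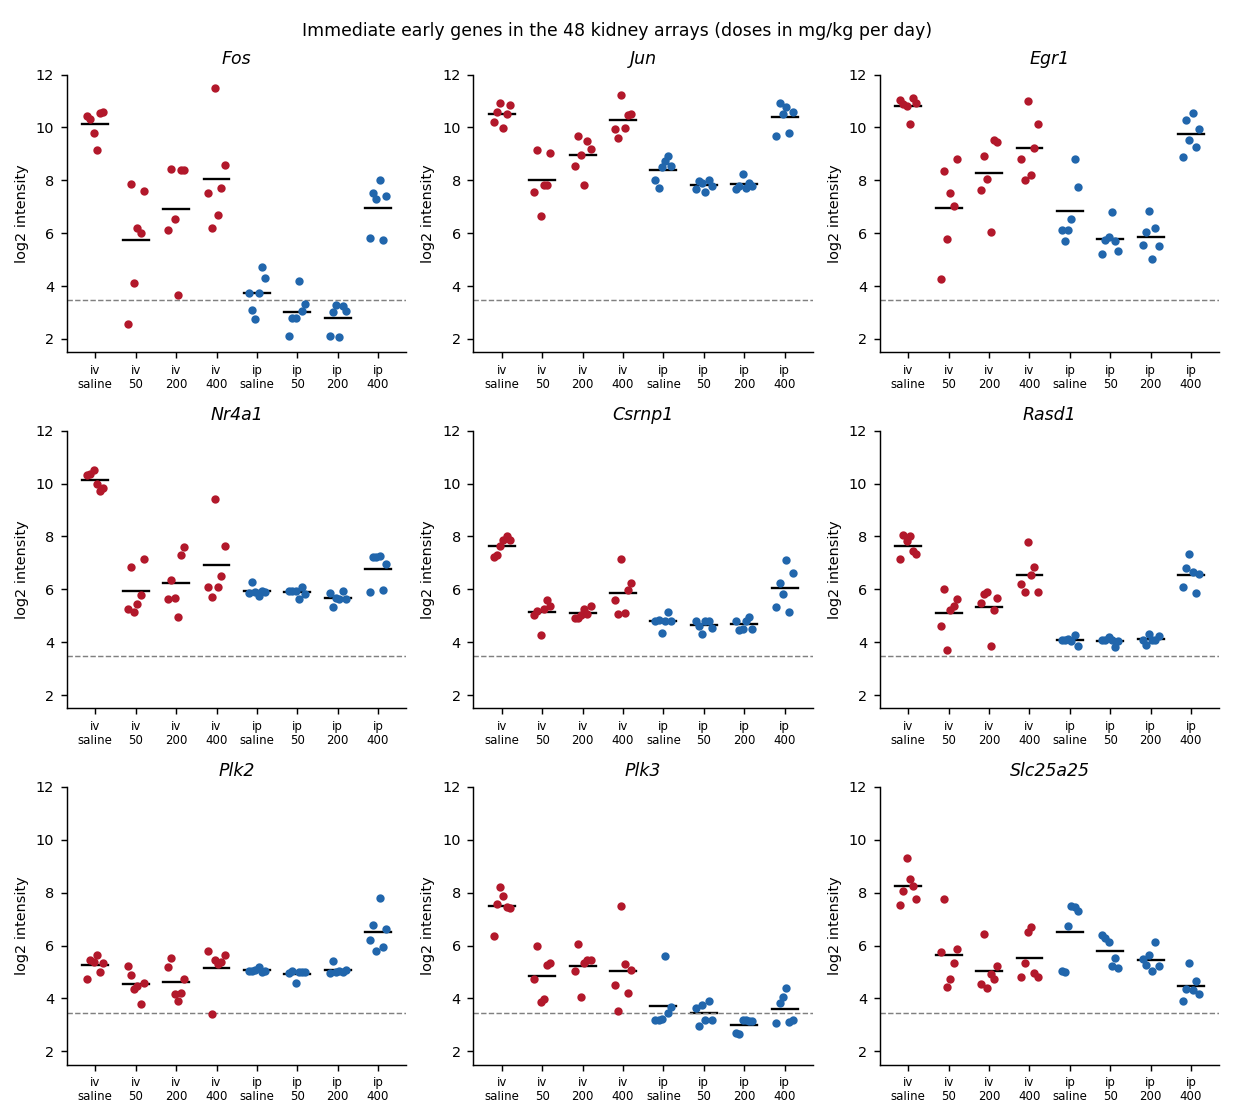
Log2 intensity (y axis) of each gene in the 48 arrays by group (x axis, iv red, ip blue, doses in mg/kg), 1 point per mouse, black bars for group means of 6 and a dashed line at the table median of 3.47. Iv saline has the highest mean in every panel but Plk2, where ip 400 mg/kg has it, and for Fos the iv dosed groups spread widely (SD up to 2.04).

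The chosen levels can be set side by side as differences from the controls, again as description. The members with all 6 iv saline arrays above all 6 arrays of the other group numbered 7 against iv 50 mg/kg, 8 against iv 200 mg/kg and 3 against iv 400 mg/kg. Against the ip groups they numbered 8 for saline, 8 for 50 mg/kg, 8 for 200 mg/kg and 5 for 400 mg/kg. The share of all genes separated in this way between single groups was not taken, here or below, so these counts have no background. Against all 42 other arrays together it was 0.0522% (3 of 5748 genes). The shares that follow are calls by limma, another measure. In iv 50 mg/kg the members' means differed from iv saline by between -4.41 (Fos) and -0.71 (Plk2), where 0.505% of the 5748 genes were called lower and 0.0348% higher. The contrast iv 200 mg/kg against iv saline had 1.29% of genes called lower and 6.07% higher. For iv 400 mg/kg the shares were 19% and 30.7%. These shares are background to contrasts the choice of members used, and nothing is read from them about the members.

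In the ip mice the order was different. At 50 and 200 mg/kg the members differed from ip saline by no more than -1.07 (Egr1, 50 mg/kg), in contrasts where 0.0522% of genes were called higher and 0.0348% lower at either dose. At 400 mg/kg Fos stood 3.23 ± 0.72 (SE) above ip saline, Egr1 2.90 ± 0.57, Rasd1 2.47 ± 0.29, Jun 1.98 ± 0.30, Plk2 1.46 ± 0.29 and Csrnp1 1.25 ± 0.26, all 6 without overlap of arrays. Slc25a25 stood 2.04 ± 0.44 below. In that contrast 36.3% of all genes were called higher and 25.1% lower, and the share of all genes without overlap was not taken. All 17 tested genes of the tubular injury list and all 10 tested macrophage and other myeloid markers were called higher there too, as they were at iv 400 mg/kg. The log2 of the summed linear intensities of the myeloid markers ranged from 9.22 to 10.16 in ip saline and from 13.47 to 14.75 in ip 400 mg/kg. The brightest markers weigh most in such a sum, and the part of these markers in the members' levels was not tested.

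In 5 contrasts none of the groups that chose the members took part, and there the members were tested with limma across all 5748 genes (Benjamini-Hochberg, called under 0.05). The choice did set ip against iv groups. A route difference shared by all doses would enter both that choice and the ip against iv contrasts below. Their p-values are therefore not wholly free of the choice. At 50 mg/kg, 3 members were called lower in ip than in iv mice, with log2 differences of -2.69 ± 0.72 for Fos (SE, 6.47-fold, adjusted p 0.00144), -1.43 ± 0.43 for Plk3 (2.69-fold, adjusted p 0.00381) and -1.05 ± 0.29 for Rasd1 (2.07-fold, adjusted p 0.00221). In that contrast 1.84% of all genes were called lower and 63% higher. Egr1 differed by -1.18 ± 0.57 (adjusted p 0.0656) and Csrnp1 by -0.47 ± 0.26 (adjusted p 0.101), neither past the threshold. Jun, Nr4a1, Plk2 and Slc25a25 differed by between -0.19 and 0.38 and were not called. Arrays of the routes overlapped for each of the 9 genes at this dose. In ip 50 mg/kg 1 of 6 arrays of Fos and 3 of 6 of Plk3 exceeded the table median, so the folds of these genes are not exact. Without iv 50 mouse 9, 5 members were called lower, with Fos at -3.01 (adjusted p 0.000877), Plk3 at -1.62, Rasd1 at -1.33, Egr1 at -1.42 (adjusted p 0.0394) and Csrnp1 at -0.64 (adjusted p 0.0329), and the calls over all genes were 3094 higher and 104 lower. With quantile normalization the calls over all genes were 488 higher and 475 lower, against 3624 and 106, and 5 members were called lower, Egr1 and Csrnp1 being added, while the uncalled differences of Plk2 and Slc25a25 turned to -0.05 and -0.35.

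At 200 mg/kg, 5 members were lower in ip than in iv mice, where 6.05% of all genes were called lower and 53.4% higher. Fos differed by -4.13 ± 0.72 (17.5-fold, adjusted p 6.6e-06), Egr1 by -2.42 ± 0.57 (5.37-fold, adjusted p 0.000393), Plk3 by -2.23 ± 0.43 (4.68-fold, adjusted p 2.79e-05), Rasd1 by -1.21 ± 0.29 (2.31-fold, adjusted p 0.000593) and Jun by -1.10 ± 0.30 (2.14-fold, adjusted p 0.00193). For Fos and Plk3 all 6 ip arrays lay below all 6 iv arrays. In ip 200 mg/kg 0 of 6 arrays exceeded the table median for either gene, so their folds are not exact. Nr4a1 (-0.58), Csrnp1 (-0.42), Plk2 (0.47) and Slc25a25 (0.42) were not called. With quantile normalization the calls over all genes were 805 higher and 1022 lower, against 3067 and 348, and 6 members were called. In this contrast 14 of the 17 tubular injury genes and 7 of the 10 myeloid markers were called lower in ip too, while at 50 mg/kg 1 of 17 and 0 of 10 were; their part in the members' differences was not tested.

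Between iv 50 and iv 200 mg/kg, Jun was the 1 member called, higher at 200 mg/kg by 0.94 ± 0.30 (1.92-fold, adjusted p 0.046), in a contrast where 6.32% of genes were called higher and 0.557% lower. Quantile normalization gave 295 higher and 72 lower over all genes, against 363 and 32. Jun's call was lost under 4 alternatives (array median centring, quantile normalization, no filter on low values, and a fit of these groups alone), with adjusted p from 0.0637 to 0.293, and it was lost on leaving out any 1 of 9 mice, with adjusted p from 0.0538 (without iv 200 mouse 25) to 0.213 (without iv 50 mouse 9). Egr1 (1.32 ± 0.57) and Fos (1.20 ± 0.72) had larger differences and were not called, with adjusted p of 0.172 and 0.38. Array weights, which give less weight to outlying arrays, called Jun, Egr1 and Nr4a1. Without mouse 9 the difference of Jun was 0.67, and the calls over all genes were 234 higher and 30 lower. In this contrast 14 of the 17 tubular injury genes and 8 of the 10 macrophage and other myeloid markers were called higher (median of the markers 1.57), and their part in the difference of Jun was not tested.

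Between ip 50 and ip 200 mg/kg limma called 0 members, and 0% of all genes higher or lower, at a threshold where 46 of 5748 genes and 0 members had an unadjusted p under 0.05. The members' differences ranged from -0.43 (Plk3) to 0.15 (Plk2). The difference between the routes in the step from 50 to 200 mg/kg was called for 0 members by limma, and 1 member (Jun, -0.91 ± 0.43) had an unadjusted p under 0.05, where 1.22% of genes were called lower and 0.0696% higher. It was -1.43 ± 1.02 for Fos and -1.24 ± 0.80 for Egr1, neither past the threshold. The other settings tried, array weights among them, and leaving out each mouse also called 0 members in both contrasts. Quantile normalization gave 13 higher and 57 lower over all genes for the interaction, against 4 and 70.

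**Figure D2:**
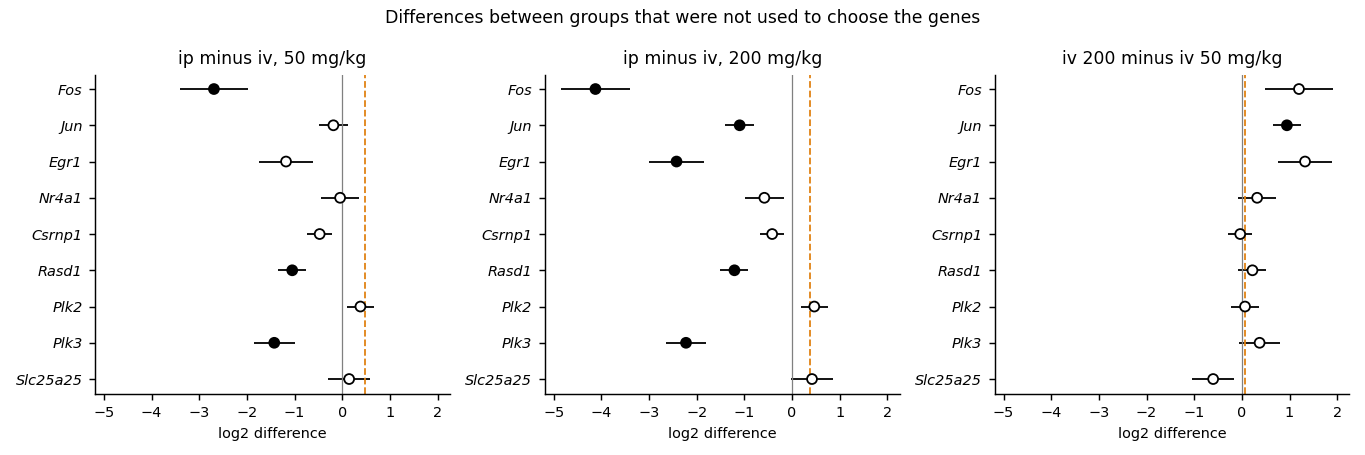
Log2 differences with SE bars (x axis) of the 9 genes (y axis) in 3 contrasts among the groups that were not used to choose them, each group of 6 mice. Filled points are called by limma, and the orange dashed line is the median of all 5748 genes: Fos, Rasd1 and Plk3 lie left of it and are filled in both ip minus iv panels.

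The spread between mice of a group was not used to choose the members, and it differed between groups. The SD of Fos ran from 0.56 to 2.04 over the iv groups and from 0.55 to 0.95 over the ip groups, and that of Nr4a1 from 0.32 to 1.39 and from 0.16 to 0.63. The same mice were often at the extremes. In iv 400 mg/kg mouse 45 had the highest value for 7 of 9 genes and mouse 44 the lowest for 7, in iv 50 mg/kg mouse 9 was lowest for 6 and mouse 78 highest for 5, and in iv 200 mg/kg mouse 28 was lowest for 6. In ip 400 mg/kg mouse 106 was highest for 6 and mouse 103 lowest for 5. The share of all genes for which an array was the extreme of its group was not taken, so these counts have no background. The arrays of mice 9 and 44 had the lowest 90th percentile of their groups, 8.28 and 8.65, and those of mice 28 and 103 did not. Mouse 45 stood with the iv saline mice for several genes, and its Fos value of 11.49 exceeded all iv saline values. Without it the iv 400 mean of Fos was 7.34 ± 0.92 (SD, n = 5) in place of 8.03 ± 1.88, and the difference of Nr4a1 from iv saline was -3.71 in place of -3.21.

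Deviations from the group mean moved together across the 48 arrays. Against Fos, Pearson's r was 0.92 for Egr1 (Spearman's rho 0.94), 0.81 for Jun (0.78) and 0.80 for Nr4a1 (0.67), each with a p of 1e-05, the smallest that 100000 permutations within groups can give, and 2.67e-05 after adjustment over the 8 pairs. It was 0.67 for Rasd1 (rho 0.44, adjusted p 0.00139), 0.54 for Csrnp1 (rho 0.51, adjusted p 0.00128) and 0.49 for Plk3 (rho 0.43, adjusted p 0.0101). Plk2 (r 0.28, rho 0.20, adjusted p 0.161) and Slc25a25 (r 0.28, rho 0.17, adjusted p 0.146) did not pass. The permutation p for rho, adjusted over the 8 pairs, was 8e-05 for Egr1 and Jun, 0.000187 for Nr4a1, 0.0019 for Csrnp1 and 0.0118 for both Rasd1 and Plk3.

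For Plk2 and Slc25a25, r was 0.24 and 0.34 in the 24 iv arrays, 0.45 and 0.14 in the 24 ip arrays, and 0.34 and 0.33 without the 2 arrays farthest from the median of Fos. The relation was positive within each route for Egr1 (r 0.97 in the 24 iv arrays and 0.81 in the 24 ip arrays) and Jun (0.86 and 0.63). It was lower in the ip arrays for Nr4a1 (0.86 and 0.42), Rasd1 (0.71 and 0.45) and Plk3 (0.56 and 0.27), and near equal for Csrnp1 (0.55 and 0.62). Without the 2 arrays farthest from the median of Fos, iv 50 mouse 7 and iv 200 mouse 28, r was 0.89 for Egr1, 0.80 for Jun, 0.79 for Nr4a1, 0.60 for Rasd1, 0.67 for Csrnp1 and 0.59 for Plk3. Without mouse 45 it was 0.92, 0.79, 0.74, 0.61, 0.44 and 0.35. Without iv saline mouse 1 and iv 50 mouse 9 it was 0.92, 0.82, 0.79, 0.68, 0.53 and 0.49. The permutation p treats mice within a group as exchangeable, and all genes of a point share an array.

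**Figure D3:**
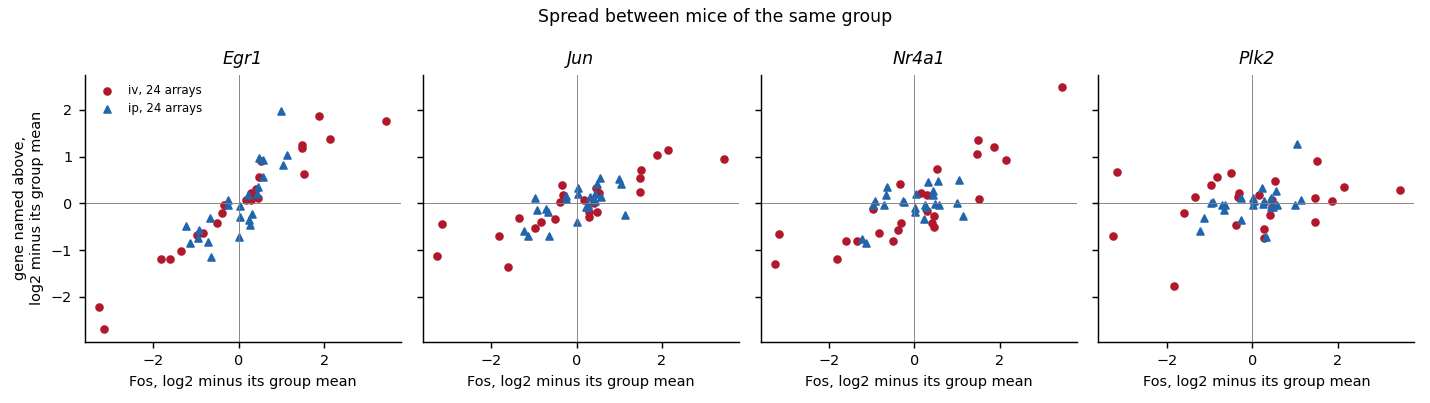
Deviation from the group mean (log2) of Fos (x axis) against that of Egr1, Jun, Nr4a1 and Plk2 (y axis), 1 point per array, iv as red circles and ip as blue triangles. Egr1 follows Fos closely in both routes (r 0.92 over 48 arrays), and Plk2 does not (r 0.28).

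Over all 36 pairs of the 9 genes, r of the deviations ranged from 0.10 to 0.92 with a mean of 0.50, and 29 pairs exceeded 0.3. The share of all gene pairs over 0.3 was not taken, so this count has no background. A member's median r with all other genes tested lay between 0.016 and 0.11. The r that a share of 0.05 of those genes exceeded ran from 0.22 (Egr1) to 0.50 (Plk2). For Jun, Csrnp1, Rasd1, Plk2, Plk3 and Slc25a25 it was over 0.3. The highest r with any of them ran from 0.51 (Egr1) to 0.80 (Plk2). All pairs of Plk2 with members, 0.14 to 0.40, lay below its 0.50, so they did not stand out from other genes. All pairs of Fos, 0.28 to 0.92, lay above its value of 0.22, but those with Plk2 and Slc25a25 (0.28 each) lay below the partner's value, 0.50 and 0.47. Of the pairs of Slc25a25, those with Jun (0.56) and Plk3 (0.63) lay above its 0.47. Its other pairs, 0.10 to 0.44, lay below. Since the genes' names rest on row offsets, the mean over the member pairs was also taken with the offsets moved by up to 3 rows either way: it lay between -0.020 and 0.14. These are descriptions with no test.

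**Figure D4:**
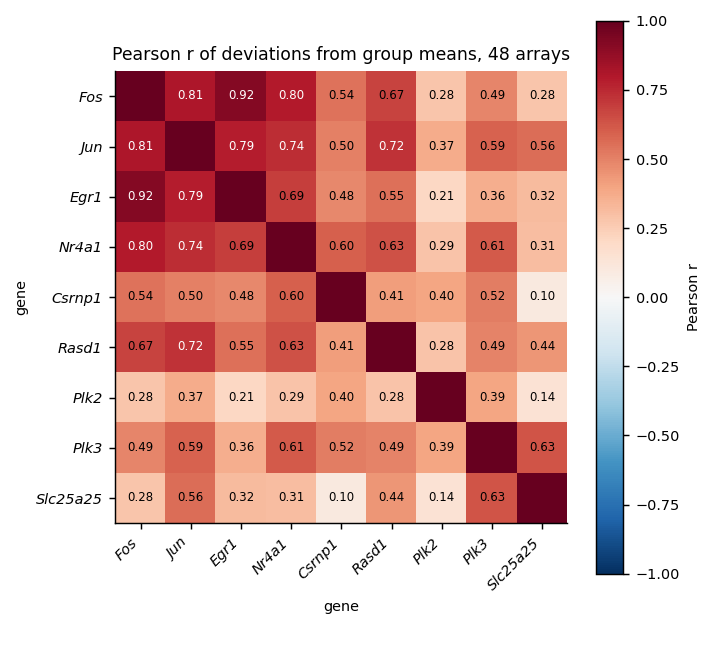
Pearson r (colour and printed value) of deviations from group means over 48 arrays for each pair of the 9 genes, named on both axes. Fos, Jun, Egr1 and Nr4a1 form the block of high values, and the lowest pair value is 0.10.

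Of 77 other immediate early genes on a list, 38 could be named and 29 were tested, and these were not chosen for the pattern one by one, although the list was drawn up with earlier results known. In ip saline against iv saline, 9 were lower and 8 higher, where 2.57% of all genes were called lower and 55.1% higher. Their median was -0.24 against 0.41 over all genes. The 6 with the largest differences were lower in ip saline. Cebpb, a leucine zipper transcription factor, differed by -2.07 ± 0.27 (SE, adjusted p 2.91e-08), Id1, an inhibitor of helix-loop-helix factors, by -1.79 ± 0.26 (adjusted p 2.21e-07), and Ptgs2, the inducible cyclooxygenase, by -1.60 ± 0.31 (adjusted p 3.67e-05). Hbegf, a ligand of the EGF receptor, differed by -1.31 ± 0.32 (adjusted p 0.000663), the small GTPase Gem by -1.17 ± 0.42 (adjusted p 0.0164) and Cebpd by -1.12 ± 0.28 (adjusted p 0.000974). Without iv saline mouse 1, 10 were lower and 5 higher, where the calls over all genes were 153 lower and 2691 higher. With each array centred on its median 10 were lower and 3 higher, and with quantile normalization 15 and 1, against 718 lower and 626 higher over all genes (148 and 3168 without).

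Part of this list was also lower in iv 50 mg/kg than in iv saline, in the same iv saline arrays that the choice of members used. At iv 50 mg/kg 8 of 29 were lower than in iv saline and 0 higher (limma), where 0.505% of all genes were called lower and 0.0348% higher, and the list's median was -0.49 against -0.01 over all genes. Without iv saline mouse 1, 9 of 29 were lower, and without iv 50 mouse 9, or without both, 7 were. Without adjustment 16 of the 29 had a p under 0.05. Cebpb differed by -1.999 ± 0.27 (adjusted p 3.1e-06), Hbegf by -1.59 ± 0.32 (adjusted p 0.00336) and Cebpd by -1.53 ± 0.28 (adjusted p 0.000831). At iv 200 mg/kg 9 were lower than in iv saline and 1 higher, the higher one being Socs3, an inhibitor of cytokine signalling (2.25 ± 0.33), where 1.29% of all genes were called lower and 6.07% higher. Id1 (-2.06 ± 0.26) and Gem (-1.38 ± 0.42) were among those lower. With quantile normalization the calls over all genes in that contrast were 297 higher and 149 lower, against 349 and 74. At iv 400 mg/kg 16 were higher than in iv saline and 4 lower, where 30.7% of all genes were called higher and 19% lower, with Socs3 at 5.21 ± 0.33, Myc at 3.07 ± 0.29 and Ier5 at 1.97 ± 0.23.

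With ip saline as the control, few genes of any kind were called below 400 mg/kg. At ip 50 mg/kg limma called 0 of 29 in either direction, with 0 at an unadjusted p under 0.05, and at ip 200 mg/kg 0 of 29, with 2. These counts are near the background at either dose, where 0.0522% of all genes were called higher and 0.0348% lower. At ip 400 mg/kg 24 were higher and 1 lower, where 36.3% of all genes were called higher and 25.1% lower, with Socs3 at 6.03 ± 0.33, Nfkbiz, an inducible regulator of NF-kB, at 3.79 ± 0.26 and Myc at 3.72 ± 0.29. In the step from 200 to 400 mg/kg, 21 of 29 rose and 0 fell in the iv mice (17.8% of all genes called higher and 13.4% lower), and 23 rose and 1 fell in the ip mice (35.2% and 25.3%). Socs3 rose by 2.96 ± 0.33 and 6.05 ± 0.33 in the 2 routes. Over all genes the split of the ip step was 2024 higher and 1457 lower, 1638 and 1796 with median centring, and 1803 and 1817 with quantile normalization.

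**Figure D5:**
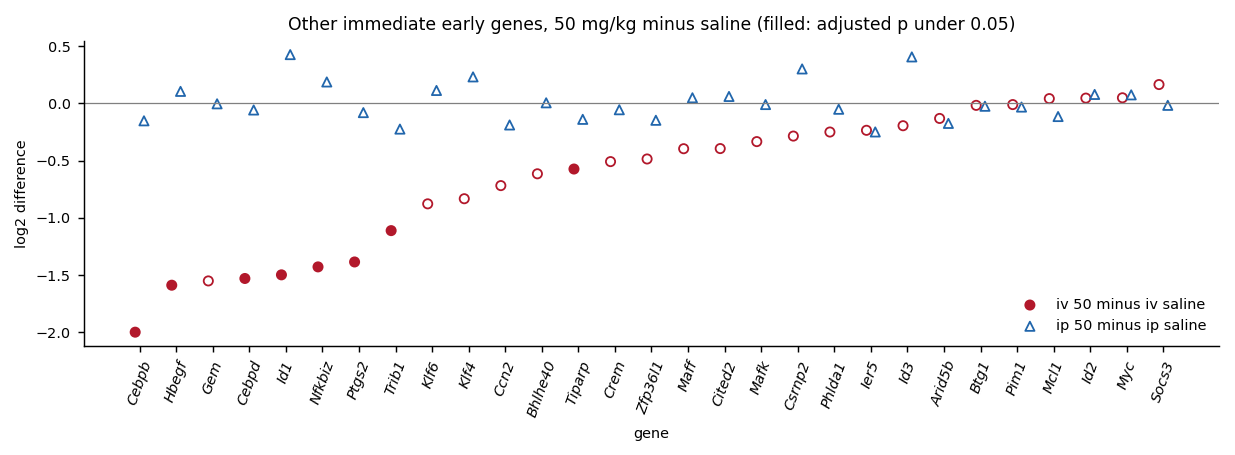
Log2 difference of 50 mg/kg from saline (y axis) for 29 other immediate early genes (x axis) in iv mice (red circles) and ip mice (blue triangles), 6 mice per group. The 8 filled iv points, with Cebpb lowest at -1.999, are called by limma, and 0 ip points are.

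Between the routes at matched dose, the list split. At 50 mg/kg 12 were higher in ip and 0 lower, led by Trib1 (1.11 ± 0.21), Nfkbiz (0.85 ± 0.26) and Pim1 (0.83 ± 0.29), where the median of the list was 0.37 and that of all genes 0.47. In that contrast 63% of all genes were called higher and 1.84% lower, so 12 of 29 is below the background share. Without iv 50 mouse 9, 9 were higher and 0 lower. Quantile normalization left 2 higher and 1 lower. At 200 mg/kg 8 were higher and 6 lower, where 53.4% of all genes were called higher and 6.05% lower, with Socs3 at -2.62 ± 0.33, Cebpb at -1.54 ± 0.27 and Bhlhe40 at 1.18 ± 0.26, and quantile normalization gave 6 higher and 11 lower. At 400 mg/kg 18 were higher and 1 lower, where 57.4% of all genes were called higher and 3.88% lower, with Pim1 at 1.65 ± 0.29, Trib1 at 1.58 ± 0.21 and Gem at 1.54 ± 0.42. Quantile normalization left 6 higher and 4 lower there, with 1000 higher and 1414 lower over all genes, against 3298 and 223. From 50 to 200 mg/kg 5 rose in the iv mice, among them Socs3 (2.08 ± 0.33), Nfkbiz (1.46 ± 0.26) and Hbegf (1.04 ± 0.32), where 6.32% of all genes were called higher and 0.557% lower. Without iv 50 mouse 9 the count was 2. The step differed between routes for Socs3 (-2.08 ± 0.46, adjusted p 0.0122) and Nfkbiz (-1.51 ± 0.37, adjusted p 0.0203), and for 0 of the 9 members.

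The kinases, cofactors and transcription factors that carry a signal to these promoters formed a list of 45 genes, of which 25 were tested. In iv 50 mg/kg against iv saline limma called 0 of 25, with 1 at an unadjusted p under 0.05, where 0.505% of all genes were called lower and 0.0348% higher, so a count of 0 is near the background. In ip saline against iv saline 14 of 25 were called higher and 0 lower, where 55.1% of all genes were called higher and 2.57% lower, and the list's median was 0.53 against 0.41 over all genes. In iv 400 mg/kg against iv saline 6 were higher and 2 lower, where 30.7% and 19% of all genes were. These are transcript levels, and the activity of the proteins was not measured. Of the other Fos, Jun and Atf family genes 6 were tested. In iv 50 mg/kg against iv saline limma called 0 of 6, with 1 at an unadjusted p under 0.05, and in ip saline against iv saline 5 were called higher and 0 lower, against the same background shares.

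The genes whose 48 values were most like the members' mean (z-scores, Pearson r, a description) were Cebpb at 0.81, Noct, which encodes nocturnin, at 0.79, Polr3d, an RNA polymerase III subunit, at 0.73, Ptgs2 at 0.71, Cebpd and Hbegf at 0.68, Irx5 at 0.67 and Mad1l1 at 0.65. Noct averaged 9.51 in iv saline, 7.58 in iv 50 mg/kg and 7.96 in ip saline. By deviations within groups they were Trib1 at 0.69, Cebpb at 0.64, Uap1 and Tsc22d3 at 0.59, Bhlhe40 and C1qtnf4 at 0.58, and Tob2 and Noct at 0.57. The members' own r with that mean, which includes each of them, ran from 0.42 (Plk2) to 0.93 (Csrnp1) over the 48 values.

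Some clock genes, which follow the hour of day, also differed between saline and dosed groups, and the labels used here give no hour of killing. In ip 50 mg/kg against ip saline, all 5 genes called of 5748 were on a list of 13 tested clock genes: Ciart (1.86 ± 0.37), Dbp (1.68 ± 0.29) and Per3 (1.21 ± 0.23) were higher, and Npas2 (-1.18 ± 0.25) and Arntl (-1.04 ± 0.23) lower. In iv 50 mg/kg against iv saline 1 of 13 was called, Ciart at -1.50 ± 0.37. Between the saline groups 3 were higher and 4 lower in ip, with Ciart at -3.37 ± 0.37, Arntl at 2.00 ± 0.23 and Npas2 at 1.72 ± 0.25 in ip against iv. Ip saline therefore differed from ip 50 mg/kg in 5 clock genes, while iv saline differed from iv 50 mg/kg in Ciart alone by limma. The median of the 13 clock genes in iv 50 mg/kg against iv saline was 0.06. The part of the hour of killing in the members' levels was not tested. In iv 50 mg/kg against iv saline limma called 0 of 9 glucocorticoid response genes (3 at an unadjusted p under 0.05, median -0.38), 0 of 9 heat shock genes (0), 0 of 15 hypoxia genes (0), 0 of 17 tubular injury genes (0, median -0.13) and 0 of 1 relative of the polo-like kinases and carrier (0). With 0.505% of all genes called lower and 0.0348% higher in that contrast, counts of 0 are near the background. In ip saline against iv saline 2 glucocorticoid response genes were higher and 1 lower, 5 heat shock genes were higher and 0 lower, 6 hypoxia genes were higher and 0 lower, 0 tubular injury genes were higher and 2 lower, and the relative of the kinases and carrier was not called, where 55.1% of all genes were called higher and 2.57% lower.

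Within groups, the deviation of Fos was set against the mean deviation of 4 lists, a comparison added after the data were seen. With the 29 other immediate early genes r was 0.50 (permutation p adjusted over the 4 lists 0.00852), with rho 0.35 (adjusted p 0.131), 0.53 in the iv and 0.53 in the ip arrays, and 0.50 without the 2 farthest arrays. Without iv saline mouse 1 and iv 50 mouse 9 it was 0.51. With the 17 tubular injury genes r was 0.15 (rho 0.10, adjusted p 0.523 by permutation), with the 13 clock genes 0.17 (rho 0.09, adjusted p 0.523) and with the 9 glucocorticoid response genes 0.19 (rho 0.21, adjusted p 0.476). For the injury genes r was 0.08 in the iv and 0.47 in the ip arrays, and -0.12 without the 2 farthest arrays. For the clock genes it was 0.25, -0.20 and 0.34, and for the glucocorticoid response genes 0.31, 0.07 and 0.15. Mouse 45, the highest of iv 400 mg/kg for 7 members, had a mean deviation of -0.89 for the injury genes, 0.31 for the other immediate early genes and 0.50 for the clock genes.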

How the data were processed

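Kidney RNA of 48 mice was measured on 48 Affymetrix arrays (45101 probe sets). The authors deposited 1 table of GCRMA intensities on a linear scale, with GCRMA named in the submitters' processing notes and its version not given in the sources used here. Each intensity was put on the log2 scale. Array precision is limited by the number of mice, 6 per group.

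The order of the deposited values is shifted against the probe set IDs, so names were given only in 3 stretches of rows where an offset puts them in register (11000 rows, 24.39% of the table, 10198 named probe sets, 7859 genes). Of all probe sets 34958 have 1 gene symbol in the platform annotation, 932 several and 9211 none, and only those with 1 were named. Each gene takes its named row with the highest mean. The members' probe sets are 1423100_at (Fos), 1417409_at (Jun), 1417065_at (Egr1), 1416505_at (Nr4a1), 1434350_at (Csrnp1), 1423619_at (Rasd1), 1427005_at (Plk2), 1434496_at (Plk3) and 1424735_at (Slc25a25), 1 named row each. A wrong offset would give a gene another gene's values.

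Genes above the table median in at least 6 arrays were tested, 5748 in all, with all 9 members passing. limma 3.58.1 (R 4.3.3) fitted the 8 group means to all arrays (40 residual degrees of freedom, eBayes with trend), two-sided, with Benjamini-Hochberg adjustment over these genes and a threshold of 0.05. The script was tested on simulated data. The p-values of limma set a difference of means against a spread between mice that all 8 groups share. The groups' own SDs were not equal, for Rasd1 from 0.13 to 0.53 in ip and from 0.38 to 0.83 in iv groups. Correlations within groups used two-sided permutation tests with 100000 resamples (scipy 1.17.1). Alternatives were median centring, quantile normalization, other filters on low values, array weights, no trend, 3 residual principal components as covariates, the mean of a gene's rows, fits of the compared groups alone, and leaving out each mouse. Genes named beside the members are the 8 most alike by each measure, and the listed genes with the largest called differences (up to 6 between the saline groups, up to 3 elsewhere, and 3 in other lists). The members and the gene lists were chosen with earlier results of these data known.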

Additional observations from a re-analysis of the deposited data

Results flagged for a closer look

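Of 72 tests (9 genes in 8 groups of 6), 8 had 1 mouse whose gap to its nearest neighbour was over 0.625 of the group's range, and chance flags about 1 in 20 groups. Egr1 in iv saline had a low value of 10.14 in mouse 4. Nr4a1 in ip saline had a high value of 6.29 in mouse 62. Rasd1 in iv 200 mg/kg had a low value of 3.86 in mouse 28, which was the lowest of its group for 6 of 9 genes. Plk2 was flagged in 4 groups: low in iv 400 mg/kg mouse 44 (3.40), high in ip saline mouse 64 (5.18), low in ip 50 mg/kg mouse 69 (4.58) and high in ip 200 mg/kg mouse 86 (5.40). In the ip groups below 400 mg/kg Plk2 had SDs from 0.06 to 0.17, so the gaps there are small. Plk3 in ip saline had a high value of 5.61 in mouse 64, against a group median of 3.34.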

How the results depend on the processing

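No paired analysis was possible because mouse numbers are not shared between groups. Names rest on row offsets, intensities have no detection calls, and route cannot be told apart from array scale. The members called in iv 200 against iv 50 mg/kg numbered 1, but 0 with median centring, quantile normalization, no filter or the compared groups alone, 3 with array weights, and 0 to 2 on leaving out each mouse (2 without iv 200 mouse 28). In ip against iv at 50 mg/kg they numbered 3, 5 with quantile normalization, 6 with array weights, and 3 to 5 on leaving out each mouse (5 without iv 50 mouse 9). At 200 mg/kg they numbered 5, and 8 with array weights. The other immediate early genes called in ip against iv at 400 mg/kg numbered 19, and 10 with quantile normalization. Under the settings other than leaving out 1 mouse, 9 counts moved by more than 1.5 times and 64 did not. The cause of these shifts was not tested.

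The following differences, none of them called in the fit reported, turned their sign. Quantile normalization gave Plk2 -0.037 in iv 200 against iv 50 mg/kg and -0.053 in ip against iv at 50 mg/kg, and Slc25a25 -0.35 in the latter. Array weights gave Egr1 -0.028 in ip 200 against ip 50 mg/kg and, for Plk2, route difference of 200 minus 50 mg/kg, -0.018. On leaving out each mouse, iv 200 against iv 50 mg/kg ranged from -0.20 to 0.063 for Csrnp1, -0.057 to 0.51 for Rasd1 and -0.12 to 0.21 for Plk2. In ip 200 against ip 50 mg/kg the range was -0.050 to 0.069 for Jun, -0.11 to 0.29 for Egr1 and -0.045 to 0.064 for Csrnp1. In ip against iv at 50 mg/kg it was -0.46 to 0.042 for Jun, -0.21 to 0.20 for Nr4a1 and -0.10 to 0.57 for Slc25a25. For the route difference it was -0.041 to 0.23 for Csrnp1, -0.45 to 0.12 for Rasd1, -0.056 to 0.27 for Plk2 and -0.15 to 0.55 for Slc25a25.

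Alternatives chosen after seeing the data moved some correlations with Fos: Egr1 to 0.97 in the iv and 0.81 in the ip arrays, and in the ip arrays Jun to 0.63, Nr4a1 to 0.42, Rasd1 to 0.45 and Plk3 to 0.27, with Plk3 at 0.35 without mouse 45. Moving the row offsets took the mean pairwise correlation from 0.50 to -0.020 (1 row back), -0.011 (2 rows on) and between 0.058 and 0.14 for the other moves of up to 3 rows.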
